A study of Homo sapiens with 6 samples.

Results

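The genes described here are 9 members of the haem synthesis pathway, ALAS1, ALAS2, ALAD, UROS, UROD, CPOX, PPOX, FECH and TMEM14C. Membership in the pathway, not a measured value, was the rule, but the choice was made with earlier results of these data known. The members are 9 of the 33367 genes to which transcripts were assigned, they hold 91 of the 151039 assigned transcripts, and all 9 passed the filter on low counts that left 14075 genes for testing. The cells were K562, an established human erythroleukaemia line, in which doxycycline switches on a short hairpin RNA (shRNA), kept under puromycin at 2 µg/ml, which all 6 cultures shared. The hairpin was either non-targeting (NT) or directed at CDAN1, a gene mutated in a congenital dyserythropoietic anaemia. CDAN1 shRNA cells came as clones c1 and c2, each a single clone, and the labels give no clone number for the NT cells. Induced cultures had received doxycycline at 1 µg/ml for 4 days, and uninduced cultures were the same cells at day 4 with doxycycline at 0 µg/ml. One library came from each of these 6 states, so the knockdown group was induced c1 and induced c2, and the 4 controls were uninduced c1, uninduced c2, uninduced NT and induced NT. Nothing in the labels says that cultures were repeated, so a p-value reflects no more than the spread among the 6 libraries, which may be technical.

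Haem is built in mitochondria and cytosol by a relay of enzymes. Aminolaevulinate synthase makes the first committed intermediate from glycine and succinyl-CoA in the mitochondrion, the middle enzymes assemble and trim a tetrapyrrole ring in the cytosol, and the last enzymes oxidise the ring and insert iron back in the mitochondrion. The first step has a housekeeping gene, ALAS1, which haem represses, and an erythroid gene, ALAS2, which is driven by GATA1 and whose mutations cause X-linked sideroblastic anaemia. Several later enzymes, among them ALAD and UROS, are known to use an erythroid promoter beside a housekeeping one. The step between ALAD and UROS is not analysed here.

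The first step has a housekeeping and an erythroid gene with very different levels below, so the stretch upstream of the annotated start is shown for both, and for CPOX, the only other of the 8 members with an entry in the RefSeq promoter table whose stretch held the GATA motif searched for. Sequences are from RefSeq on GRCh38.p14, run 5′ to 3′ on the gene's strand, and end before the first annotated transcript base. The search was for AGATAA on both strands, with no overlap between matches or with the other motifs, and capitals mark a match, which reads TTATCT when it lies on the opposite strand.
ALAS1, chr3:52197833-52198082, plus strand: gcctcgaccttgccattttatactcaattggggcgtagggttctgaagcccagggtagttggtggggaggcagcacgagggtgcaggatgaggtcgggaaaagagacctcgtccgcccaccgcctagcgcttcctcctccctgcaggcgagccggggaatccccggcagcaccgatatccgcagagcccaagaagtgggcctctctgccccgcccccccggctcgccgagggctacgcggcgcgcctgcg
ALAS2, chrX:55031065-55031227, minus strand: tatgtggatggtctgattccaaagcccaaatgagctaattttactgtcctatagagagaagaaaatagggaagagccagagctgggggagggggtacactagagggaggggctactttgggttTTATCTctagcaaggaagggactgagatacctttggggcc
CPOX, chr3:98593724-98593861, minus strand: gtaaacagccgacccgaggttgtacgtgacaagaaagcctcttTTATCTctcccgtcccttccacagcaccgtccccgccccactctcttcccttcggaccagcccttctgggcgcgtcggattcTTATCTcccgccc
The ALAS2 stretch held 1 match, the CPOX stretch 2 and the ALAS1 stretch 0. UROS has no entry in that table. Full windows of 250 bases before each RefSeq start, which for some members run past a GENCODE start, were also searched. The motif was in those of ALAS2 and CPOX and in 1 of the 2 PPOX windows, where it lay past the GENCODE start. Of all 35116 windows 9.17% held it. The letters CCACACCC, a CACC box of the kind bound by KLF1, were in 1 PPOX window (2.97% of all windows) and GCATGCGC, a core of NRF1 sites, in that of TMEM14C (2.63%). These matches describe letters only.

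ALAS2 is transcribed in forms that differ in coding sequence, and the exon that separates the 2 largest is shown because the isoform values below turn on it. Exon 4 of the 11 exons of ALAS2-201 lies at chrX:55023757-55023867 (GRCh38, minus strand). It is 111 bases or 37 codons long, wholly coding, and its sequence from GENCODE 29 is given first. The join made when it is skipped, as in ALAS2-202, follows, with the bases after the join in capitals.
ALAS2 exon 4: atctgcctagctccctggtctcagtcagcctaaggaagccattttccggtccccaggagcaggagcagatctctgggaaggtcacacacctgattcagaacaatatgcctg
ALAS2-202 join: aggctttcaagacagGAAACTATGTCTTCA
FECH-202 differs from FECH-201 by 18 extra coding bases at chr18:57580055-57580072 (GRCh38, minus strand), in capitals within 30 bases of context.
FECH-202: gaagagGTATGAGTCTAACATCAGgaagcc

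The libraries held between 28318555 and 32352246 estimated reads. CDAN1 stood at 16.96 CPM (counts relative to the library total, scaled between libraries) in induced c1 and 29.76 CPM in induced c2, below the 37.02 to 70.18 CPM of the 4 controls. All 9 markers of K562 cells were at 1 CPM or more in every library, with a summed level of 10704 to 15088 CPM. The hepatocyte list, for the other tissue known for strong haem synthesis, had its 3 genes under 1 CPM in every library (summed 0.03307 to 0.1714 CPM). Of the 5 megakaryocyte markers ITGA2B alone reached 1 CPM in every library, and their sum ranged from 12.1 to 165.5 CPM. Of the 4 lymphocyte markers none did, with sums of 0.4899 to 1.659 CPM. In every library 2 of 5 monocyte and granulocyte markers (LYZ and CD68), 1 of 3 fibroblast markers (COL1A1) and 1 of 3 epithelial markers (EPCAM) reached it. Their sums were 79.6 to 149.2, 5.051 to 15.89 and 23.99 to 55.32 CPM. Bulk libraries cannot tell fewer cells of a type from less RNA per cell.

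UROD was the most abundant member per length of transcript. Expressed as TPM, which corrects for length, it held 526.5 to 589.4 over the 6 libraries, and TMEM14C followed at 238.8 to 276.6. ALAS2 ranged from 94.04 to 276.5 TPM, FECH from 80.68 to 97.37, PPOX from 39.44 to 71.00, UROS from 43.71 to 60.11 and CPOX from 50.20 to 58.62. ALAS1 held 21.55 to 27.16 TPM and ALAD, the lowest, 8.154 to 11.57. UROD came first, FECH 4th, ALAS1 8th and ALAD last in each of the 6 libraries. The ranges of UROS, CPOX and PPOX overlapped one another, and their order changed between libraries. The ranges of ALAS2 and TMEM14C overlapped through induced c1, the single library in which ALAS2 ranked above TMEM14C. There ALAS2-201, ALAS2-202 and ALAS2-203 held 101.9, 101.1 and 25.32 TPM, together less than the 261.1 TPM of TMEM14C. That rank thus depends on minor ALAS2 transcripts. Among them is the short ALAS2-207, described below, with 407.2 estimated reads in induced c1 and a listing of 0 in uninduced c1.

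**Figure D1:**
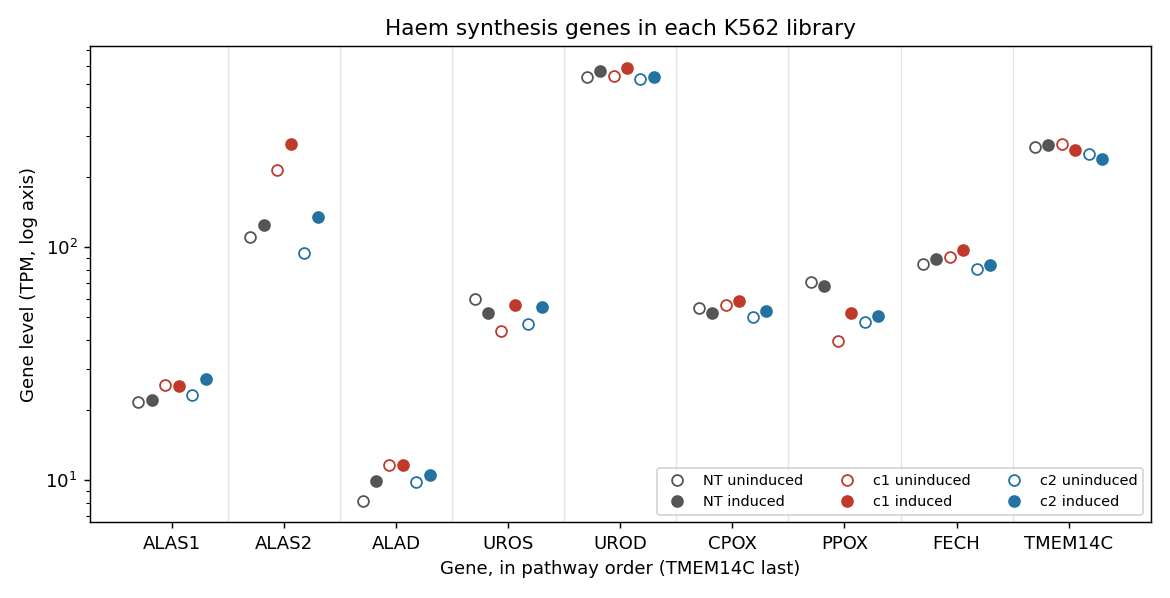
Level of each haem synthesis gene in TPM (vertical log axis) in the 6 libraries, with genes in pathway order, colour for the cells (NT, c1, c2), open circles for uninduced and filled circles for induced libraries. UROD lies highest in every library, ALAD lowest, and ALAS2 has the widest spread, from 94.04 TPM in uninduced c2 to 276.5 TPM in induced c1. The ALAS2 value of induced c1 includes the short transcript ALAS2-207, which was listed at 0 in uninduced c1.

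ALAS2 (ENSG00000158578, chromosome X, 55009055 to 55031064 on GRCh38, minus strand), the erythroid synthase, was the member whose level varied most. It stood at 168.3 CPM in uninduced NT, 180.3 in induced NT, 310.4 in uninduced c1, 369.3 in induced c1, 129.5 in uninduced c2 and 183.5 in induced c2. Both c1 libraries were above all others, and induced c2 was close to induced NT. The highest library held 2.85 times the lowest, and 2.9% of genes with a mean of at least 10 CPM had a wider range of log2 CPM. Its TPM was 5.12 times that of ALAS1 in uninduced NT and 5.63 times in induced NT, 8.35 and 10.9 times in c1, and 4.08 and 4.93 times in c2. The ALAS2 TPM behind the 10.9 of induced c1 includes the short ALAS2-207, listed at 0 in uninduced c1 and described below.

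ALAS1 (ENSG00000023330, chromosome 3, 52198086 to 52214327, plus strand), the housekeeping synthase, was among the steadiest members. It stood at 39.53 CPM in uninduced NT, 39.38 in induced NT, 40.87 in uninduced c1, 44.68 in induced c1, 39.82 in uninduced c2 and 44.56 in induced c2. By CPM the 2 induced CDAN1 shRNA libraries were the highest, and the highest library held 1.13 times the lowest. By TPM uninduced c1, at 25.67, lay above induced c1, at 25.34, so the knockdown libraries did not stand apart from the controls. A range wider than that of ALAS1 was seen in 90.9% of genes with a mean of at least 10 CPM.

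ALAD (ENSG00000148218, chromosome 9, 113386317 to 113401333, minus strand) joins molecules of aminolaevulinate into porphobilinogen in the cytosol. Its level was 16.05 CPM in uninduced NT, 20.10 in induced NT, 22.36 in uninduced c1, 24.70 in induced c1, 18.54 in uninduced c2 and 20.44 in induced c2. Both c1 libraries lay above the other 4. It rested on 426 to 747 estimated reads, the fewest of any member.

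UROS (ENSG00000188690, chromosome 10, 125784980 to 125823285, minus strand), which closes the ring, and whose loss causes congenital erythropoietic porphyria, stood at 50.01 CPM in uninduced NT and 41.52 in induced NT. In c1 it stood at 37.94 CPM uninduced and 48.05 induced, and in c2 at 35.99 and 45.29. The groups overlapped, with uninduced NT highest and uninduced c2 lowest. In both clones the induced library was the higher one, and in NT it was the lower.

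UROD (ENSG00000126088, chromosome 1, 45012147 to 45015575, plus strand), which removes carboxyl groups from the ring, was steady. It stood at 428.7 CPM in uninduced NT, 441.9 in induced NT, 417.9 in uninduced c1, 447.0 in induced c1, 392.3 in uninduced c2 and 397.7 in induced c2. The 2 c2 libraries were the lowest, and the highest library held 1.14 times the lowest.

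CPOX (ENSG00000080819, chromosome 3, 98579446 to 98593723, minus strand), the first of the closing mitochondrial enzymes, stood at 121.9 and 110.4 CPM in uninduced and induced NT, 126.5 and 126.7 in c1, and 105.2 and 116.3 in c2. Its groups overlapped, and the highest library held 1.20 times the lowest.

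PPOX (ENSG00000143224, chromosome 1, 161166410 to 161178013, plus strand), which oxidises protoporphyrinogen to protoporphyrin, was highest in both NT libraries. It stood at 70.88 CPM in uninduced NT, 65.56 in induced NT, 41.36 in uninduced c1, 53.54 in induced c1, 42.33 in uninduced c2 and 45.79 in induced c2. No library of c1 or c2 reached the lower NT value. Its exons share 1118 bases with B4GALT3 on the opposite strand, which stood at 77.32 to 99.7 CPM, and the strand setting of the libraries is not given in the sources used here. None of those 1118 bases lies in the 4 PPOX transcripts described below. They lie in other annotated PPOX transcripts, and reads of transcripts beyond these 4 also count toward the gene's level.

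FECH (ENSG00000066926, chromosome 18, 57548283 to 57586772, minus strand), the ferrochelatase that inserts iron, stood at 121.2 and 122.5 CPM in uninduced and induced NT, 155.6 and 151.7 in c1, and 111.8 and 125.3 in c2. Both c1 libraries lay above the other 4. TMEM14C (ENSG00000111843, chromosome 6, 10722915 to 10731129, plus strand), an inner membrane protein needed for protoporphyrinogen to reach the last enzymes, stood at 212.0 and 209.8 CPM in NT, 212.7 and 198.9 in c1, and 184.2 and 176.4 in c2. Both c2 libraries were its lowest.

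The comparison named in the study's design set the 2 knockdown libraries against the 4 controls. None of the 9 members passed edgeR's quasi-likelihood test (0 of 9 at adjusted p under 0.05, 0 at an unadjusted p under 0.05, and 0 of 9 by DESeq2 and by limma voom), where the test called 0% of the 14075 genes. ALAS2 had the largest difference, 0.49 ± 0.39 on the log2 scale (SE, 2 against 4 libraries, adjusted p = 1, edgeR), with c1 high and c2 within the range of the controls. Without induced c1 the difference was −0.11. ALAS1 differed by 0.16 ± 0.08, with an interval of 0.00 to 0.32, and UROD by 0.01 ± 0.08, with an interval of −0.15 to 0.17. Intervals of log2 differences take the SE as normally distributed, which is too narrow for so few libraries. The unadjusted p of ALAS1 was 0.0877 (edgeR). The median log2 difference was 0.12 over the members and −0.001 over all genes tested, and 7 of the 9 members were positive.

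Induced and uninduced libraries of a clone came from the same cells, so the clone pairs them, and the blocked value is given where it changes a call or a count. With the clone as a replicate block the knockdown comparison called 0.0426% of all genes, and still 0 of the 9 members by edgeR, with 3 at an unadjusted p under 0.05. In this blocked fit the NT libraries, neither of them a knockdown library, add only to the estimate of spread. The difference is therefore that between induced and uninduced c1 and c2, with doxycycline not taken off. ALAS2 stood at 0.37 ± 0.07 (adjusted p = 0.148, edgeR) and was called by DESeq2 with the same block (0.38 ± 0.08, adjusted p = 0.00208). UROS stood at 0.34 ± 0.10 (adjusted p = 0.31, edgeR) and PPOX at 0.24 ± 0.09 (adjusted p = 0.378, edgeR). PPOX was negative without the block, at −0.15 ± 0.26, where the controls include the 2 NT libraries, the highest for PPOX.

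Induced against uninduced libraries of c1 and c2 addressed the response within the clones. Without the block edgeR called 0 of 9 members and 0% of all genes, with 1 member, UROS, at an unadjusted p under 0.05, and DESeq2 and limma voom called 0 members. With the clone as a replicate block 1 of 9 members, ALAS2, rose, where the same fit called 1.00% of all genes. The rise was 0.37 ± 0.07 in log2 terms by edgeR (adjusted p = 0.0484), from 310.4 to 369.3 CPM in c1 and from 129.5 to 183.5 CPM in c2. DESeq2 with the block called it too (adjusted p = 0.042) and limma voom with the block did not. The rise is the same difference as that of the blocked knockdown comparison, and no separate result. The NT libraries, which this contrast does not include, stood at 168.3 CPM uninduced and 180.3 CPM induced. UROS stood at 0.34 ± 0.08 (adjusted p = 0.123, edgeR) and PPOX at 0.24 ± 0.09 (adjusted p = 0.294, edgeR), and neither passed.

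The response of the CDAN1 shRNA clones was then set against that of NT, which takes the NT response to doxycycline off. EdgeR called 0 of 9 members, with 1 (UROS) at an unadjusted p under 0.05, and 0% of all genes, and with the clone as a replicate block 0 of 9 members, with 2 at an unadjusted p under 0.05, and 0.135% of all genes. DESeq2 and limma voom called 0 members with and without the block. UROS had the largest difference of responses, 0.61 ± 0.15 with the block (adjusted p = 0.388, edgeR, interval 0.32 to 0.89), and combined a lower induced than uninduced level in NT with a higher induced level in both clones. PPOX stood at 0.36 ± 0.16, ALAS2 at 0.28 ± 0.13 and CPOX at 0.22 ± 0.12 with the block, and each of the 3 had an adjusted p of 1 (edgeR). The NT response is 1 library against 1.

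Taken clone by clone, the induction response is the log2 CPM of the induced minus the uninduced library, and its interval covers counting error only. ALAS2 was higher in the induced library of NT, c1 and c2, by 0.10 in NT (95% interval 0.04 to 0.16), 0.25 in c1 (0.21 to 0.29) and 0.50 in c2 (0.44 to 0.56). UROS stood at −0.27 in NT (−0.38 to −0.15), 0.34 in c1 (0.23 to 0.46) and 0.33 in c2 (0.21 to 0.45). PPOX stood at −0.11 in NT, 0.37 in c1 and 0.11 in c2. The value was higher in both clones than in NT for these 3 genes and for ALAS1 and CPOX, though for ALAS1 in c1 not by TPM.

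ALAS1 stood at −0.01 in NT, 0.13 in c1 and 0.16 in c2, while ALAD stood at 0.32, 0.14 and 0.14, and so was furthest from 0 in the cells without the CDAN1 hairpin. CPOX stood at −0.14, 0.00 and 0.14, and FECH at 0.02, −0.04 and 0.17. UROD (0.04, 0.10 and 0.02) and TMEM14C (−0.02, −0.10 and −0.06) stayed within 0.10 of 0 in NT, c1 and c2. A positive response was seen in 4 of 9 members in NT, 7 in c1 and 8 in c2, counting CPOX in c1, whose interval ran from −0.06 to 0.07, where 49.1%, 47.2% and 49.7% of all genes tested were positive. The median response of the members was −0.01 in NT, 0.13 in c1 and 0.14 in c2. By TPM, which corrects for the lengths of the transcripts used, 6, 7 and 8 members were positive and several single responses were different. FECH then stood at 0.07, 0.10 and 0.06, ALAS1 at 0.04, −0.02 and 0.23, and ALAD at 0.27, 0.00 and 0.10 in NT, c1 and c2.

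**Figure D2:**
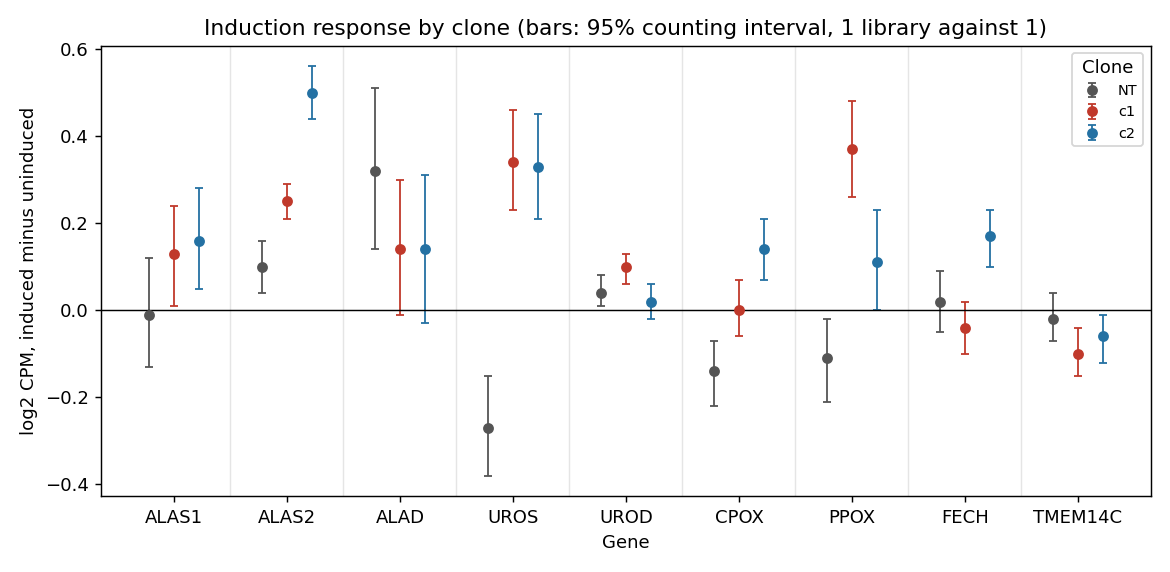
Induction response of each haem synthesis gene (log2 CPM of the induced minus the uninduced library, vertical axis) in NT, c1 and c2, with bars for the 95% counting interval of 1 library against 1. UROS lies below 0 in NT (−0.27) and above it in c1 (0.34) and c2 (0.33), and ALAS2 lies above 0 in NT, c1 and c2.

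The next comparisons set the 3 lines of cells against one another. Each clone comparison used its 2 libraries with doxycycline as a term, so the p-values refer to the spread between libraries of these particular clones and not between clones of one construct. In c1 against NT, 4 of 9 members were called, where the fit called 27.8% of all genes. ALAS2 was higher by 0.96 ± 0.09 on the log2 scale (SE, 2 against 2 libraries, adjusted p = 0.000429, edgeR), a fold of 1.94. ALAD was higher by 0.39 ± 0.10 (adjusted p = 0.0217, edgeR) and FECH by 0.34 ± 0.06 (adjusted p = 0.00808, edgeR). PPOX was lower, at −0.53 ± 0.11 (adjusted p = 0.0121, edgeR). The FECH call ended when average transcript length entered as an offset (0.13 ± 0.06, adjusted p = 0.208, edgeR), and that for ALAD with DESeq2 (0.38 ± 0.17, adjusted p = 0.0876). Without uninduced NT or without uninduced c1 the calls of PPOX and ALAD ended, with PPOX at −0.36 and −0.35, and without induced c1 that of ALAD ended.

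In c2 against NT, 2 of 9 members were called, both lower, where the fit called 21.1% of all genes. PPOX was lower by a log2 difference of −0.64 ± 0.11 (adjusted p = 0.00739, edgeR) and TMEM14C by −0.23 ± 0.05 (adjusted p = 0.0189, edgeR). ALAS2 stood at −0.17 ± 0.09 (adjusted p = 0.211, edgeR), ALAD at 0.11 ± 0.10 and FECH at −0.04 ± 0.06. Without induced c2, ALAS2 was called lower (−0.33, adjusted p = 0.0419, edgeR), and without uninduced c2 it stood at −0.01. UROD, at −0.14 ± 0.05, was called lower without uninduced c1 or without induced c1 (adjusted p = 0.0358 and 0.036, edgeR). The comparisons of c1 and of c2 with NT share the NT libraries, so a low PPOX in both rests on the same 2 NT values. UROS turned on the NT library used. Without induced NT it was called lower in both clones (−0.41 in c1 and −0.48 in c2, adjusted p = 0.0262 and 0.0158, edgeR), and without uninduced NT it stood at 0.21 and 0.12. Leaving out any 1 of the 4 libraries compared ended the TMEM14C call, and keeping transcripts without a GENCODE 29 match as features of their own ended both (adjusted p = 0.0771 for PPOX, edgeR).

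In c2 against c1, 3 of 9 members were called, all lower in c2, where the fit called 26.8% of all genes. ALAS2 was lower by a log2 difference of −1.13 ± 0.09 (adjusted p = 0.000141, edgeR), FECH by −0.38 ± 0.06 (adjusted p = 0.00482, edgeR) and TMEM14C by −0.19 ± 0.05 (adjusted p = 0.0299, edgeR). The other 6 members were also negative, from −0.27 ± 0.09 for ALAD to −0.02 ± 0.08 for ALAS1, and none passed. The median over the members was −0.19 and that over all genes −0.01. Without uninduced c2 only ALAS2 was called, and FECH stood at −0.28. The TMEM14C call also ended with DESeq2 (adjusted p = 0.0652), with the length offset, with unmatched transcripts kept, without the doxycycline term, and without induced NT, uninduced c1 or induced c2. Before induction CDAN1 was also unequal between these clones, at 37.02 CPM in c1 against 55.42 in c2, and its part in the ALAS2 difference was not tested.

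**Figure D3:**
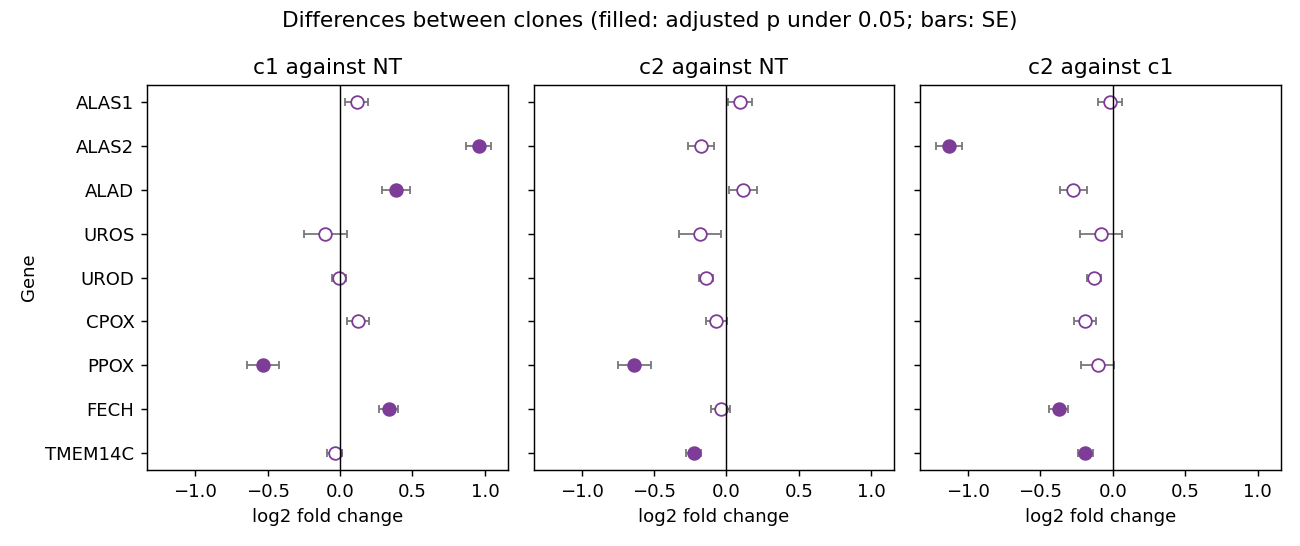
Log2 fold change of each haem synthesis gene (horizontal axis) in c1 against NT, c2 against NT and c2 against c1, with bars for the SE and filled circles for an adjusted p under 0.05 by edgeR. ALAS2 stands at 0.96 in c1 against NT and at −1.13 in c2 against c1, and PPOX lies below 0 in both comparisons with NT.

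ALAS2 reads divided mainly between ALAS2-201, which holds exon 4, and ALAS2-202, which skips it by the join printed above. ALAS2-201 had 2396 and 2230 estimated reads in uninduced and induced NT, 3664 and 5068 in c1, and 1466 and 2322 in c2. ALAS2-202 had 1416 and 1868 in NT, 4100 and 4369 in c1, and 1926 and 2631 in c2. Transcripts with exon 4 took 53.6% of the reads in uninduced NT (95% Wilson interval 52.2 to 55.1), 46.7% in induced NT, 41.8% in uninduced c1, 45.6% in induced c1, 39.0% in uninduced c2 and 42.0% in induced c2. Both NT libraries were above all 4 libraries of c1 and c2, but the intervals of induced NT (45.3 to 48.1) and induced c1 (44.6 to 46.5) overlapped. These shares count ALAS2-207, described below, as lacking exon 4, with 38.18 reads in induced NT and 407.2 in induced c1. Reads with and without exon 4 were 2245 and 2564 in induced NT, and 5087 and 6077 in induced c1. With ALAS2-207 left out, the share of induced c1 would no longer lie below that of induced NT. In c1 and c2 the share of reads was higher in the induced library and in NT it was lower. By TPM the share was 48.8% and 42.5% in uninduced and induced NT, 37.2% and 37.5% in c1, and 34.9% and 36.6% in c2, so nearly level in c1.

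ALAS2-203, which also lacks exon 4 and has an added exon of 107 bases at 55027751 to 55027857 near the start of the gene, took 8.17% to 13.5% of the reads and was highest in NT. ALAS2-207, a short coding transcript annotated in the same gene, was listed at 0 in the 3 uninduced libraries. It had 38.18 estimated reads in induced NT, 407.2 in induced c1 and 74.36 in induced c2. A listing of 0 allows up to 3 reads, counting error only, and such an estimate can also arise when shared reads are given to longer transcripts. Its listed length, 658 bases, differs from the 474 bases in GENCODE 29, so the authors' model of it was another one. UROS-204 likewise has 1313 listed bases against 1342, and exon structures given here are those of GENCODE 29. ALAS2-207 was chosen for mention after its values were seen. Its short length weighs in TPM, where the c1 response of ALAS2 was 0.37 in place of 0.25. ALAS2 also shares 3 exonic bases with APEX2 on the opposite strand.

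UROS-203 starts inside the first intron of UROS-204, 6624 bases downstream, and the known erythroid promoter of UROS lies in that intron. Both transcripts hold 795 coding bases. Its share, set against transcripts that start upstream, was 62.3% in uninduced NT and 43.9% in induced NT, 47.3% and 48.4% in c1, and 59.2% and 57.6% in c2. Uninduced NT and both c2 libraries were high, and induced NT and both c1 libraries low. In reads, UROS-203 had 690.2 and 397.0 in NT, 446.4 and 636.9 in c1, and 515.0 and 693.4 in c2. The lower UROS level of induced NT was thus accompanied by fewer UROS-203 reads, while UROS-204 had 208.8 uninduced and 326.3 induced.

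By reads, ALAD came mostly from transcripts that start in the first exon of ALAD-201. Transcripts that start elsewhere took 0.412% to 2.24% of its reads, a handful of estimated reads in each library. These transcripts are short, and by TPM the same forms took 11.5% and 3.0% of the gene in uninduced and induced NT, 5.05% and 4.7% in c1, and 15.1% and 9.34% in c2. ALAD-208, which retains an intron, took 6.85% of the reads of ALAD-201 and ALAD-208 together in uninduced NT, 30.3% in induced NT, 24.9% and 24.3% in c1, and 16.1% and 14.9% in c2. The fully spliced ALAD-201 had 364.8 and 345.6 reads in NT, so the higher ALAD level of induced NT, 20.10 against 16.05 CPM, lay in ALAD-208, at 26.84 and 149.9 reads. ALAS1 transcripts with an added leader exon of 177 bases were set against those that span its position without it. The former took 41.2% and 38.6% of the reads of both in NT, 30.4% and 31.5% in c1, and 26.5% and 37.4% in c2. There was no division between induced and uninduced libraries.

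PPOX-202 and PPOX-201 carry the same 1431 coding bases and differ by 61 bases at the end of the noncoding first exon. The share of PPOX-202 in the reads of PPOX-202 and PPOX-201 together was 45.8% in uninduced NT and 42.8% in induced NT. It was 42.5% and 66.7% in c1, and 59.1% and 86.4% in c2 (95% Wilson interval 83.6 to 88.6 in induced c2). Of all PPOX reads, PPOX-202 took 26.8% and 24.8% in NT, 25.3% and 38.8% in c1, and 34.3% and 46.2% in c2. The 2 knockdown libraries were the highest. PPOX-201 had 598.0 and 579.5 estimated reads in NT, 400.0 and 314.4 in c1, and 293.6 and 100.6 in c2, and PPOX-202 had 504.4 and 432.8, 296.1 and 628.7, and 424.0 and 636.9. PPOX-210 and PPOX-205, which retain introns, held 9.40% to 11.3% and 8.12% to 11.2% of PPOX reads.

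FECH-201 has a last exon of 2564 bases and FECH-202 one of 1337 bases with the 18 coding bases printed above. FECH-201 took 41.4% and 42.8% of the reads of both in NT, 50.0% and 46.8% in c1, and 45.3% and 44.4% in c2. The share was highest in c1, where FECH reads were also highest, and the TPM of FECH, which corrects for length, ran from 80.68 to 97.37. UROD-201, CPOX-201 and TMEM14C-201 each dominated the reads of their gene, at 70.8% to 74.6%, 97.0% to 98.9% and 87.7% to 92.8%. By TPM they held 55.4% to 60.3%, 86.9% to 94.0% and 84.5% to 90.0% of their gene. Shares of this kind are estimates that divide reads between overlapping transcripts, and the intervals, at most 4.03 percentage points to either side, cover counting error only. No test between groups was run on them.

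**Figure D4:**
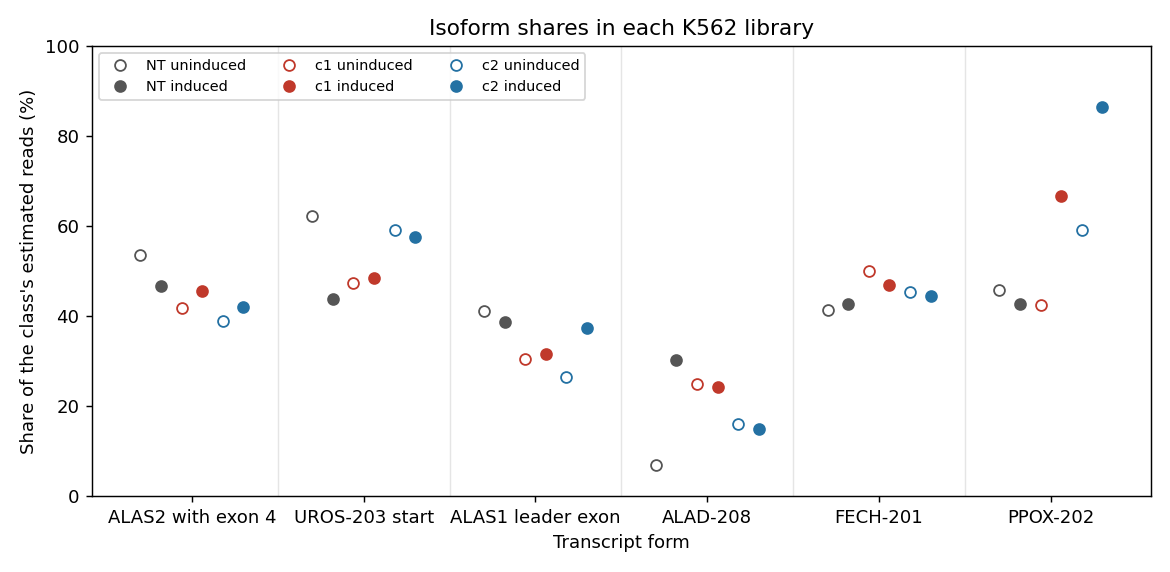
Share of estimated reads (vertical axis, %) taken by a named transcript form in each library, with colour for the cells, open circles for uninduced and filled circles for induced libraries. PPOX-202, as a share of PPOX-202 and PPOX-201 together, reaches 66.7% in induced c1 and 86.4% in induced c2 against 42.5% to 59.1% in the 4 controls. The NT libraries lie highest for ALAS2 with exon 4, where the counting intervals of induced NT and induced c1 overlap.

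Genes that supply, carry or use the pathway's products were taken from a list of 36, of which 34 passed the filter. In the 3 comparisons of knockdown and induction, with and without the block, edgeR called 0 of the 34. At an unadjusted p under 0.05 there were 0 without the block, and with it 3 for knockdown, 3 for induced against uninduced and 1 for the response against NT. PPARGC1A and HMOX1 were those that did not pass, at no more than 0.07501 and 0.03427 CPM. In c1 against NT 4 of the 34 were higher and 7 lower, 32.4% called against 27.8% of all genes. The 6 of smallest p were lower in c1, namely IREB2, an iron regulatory protein (−0.43 ± 0.06), CLPX, which activates and degrades aminolaevulinate synthase (−0.47 ± 0.07), TSPO (−0.54 ± 0.08), TMEM14B (−0.30 ± 0.05), ABCB10, a mitochondrial inner membrane transporter (−0.39 ± 0.07), and LONP1, a mitochondrial protease (−0.27 ± 0.05), with adjusted p from 0.00231 to 0.00994 (edgeR).

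In c2 against NT 0 of the 34 were higher and 8 lower, 23.5% called against 21.1% of all genes. BLVRB, a biliverdin reductase, stood at −0.63 ± 0.06, ABCB10 at −0.53 ± 0.07, GLRX5, which serves iron-sulphur assembly, at −0.40 ± 0.06, SLC25A37, the mitochondrial iron importer mitoferrin, at −0.39 ± 0.08, ABCB6 at −0.34 ± 0.08 and BLVRA at −0.30 ± 0.08 (adjusted p from 0.000644 to 0.0284, edgeR). In c2 against c1 3 were higher and 4 lower, 20.6% called against 26.8% of all genes. CLPX stood at 0.55 ± 0.07 and IREB2 at 0.46 ± 0.06, while BLVRB stood at −0.52 ± 0.06, BLVRA at −0.56 ± 0.08, FLVCR1, a haem exporter, at −0.37 ± 0.07 and ACO1 at −0.27 ± 0.08 (adjusted p from 0.00105 to 0.0405, edgeR). GATA1, the activator of ALAS2, was at 313.1 to 362.9 CPM, highest in uninduced c2, where ALAS2 was lowest, and was called in none of these comparisons. Its part in the ALAS2 levels was not tested.

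The genes whose log2 CPM followed ALAS2 most closely over the 6 libraries, of 9093 compared, were CARS2 (Pearson r = 0.9985), CHMP7 (0.9963) and CEP89 (0.9942). Their ranges were far narrower than that of ALAS2, with CARS2 at 32.5 to 39.1 CPM, CHMP7 at 39.1 to 50.7 and CEP89 at 18.9 to 26.2. For ALAS1 they were RELT (0.9936), NRARP (0.9861) and SEMA4C (0.9857). All points share the 6 libraries and the 3 lines of cells, and correlations are given as descriptions.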

How the data were processed

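RNA sequencing measured transcript levels in 6 libraries of K562 cells, 1 for each of NT, c1 and c2 with and without doxycycline, as the sample titles give them. Total RNA went into libraries made with the NEBNext Ultra RNA kit, per the labels' protocols. The authors estimated transcript abundance with Salmon 1.5.2 against GRCh37 (hg19), per the submitters' processing notes. For each transcript the deposited files hold an estimated count of reads (expected count) and a TPM value, per the file headers. How reads were trimmed, the annotation and the strand setting are not given in the sources used. The names of the deposited tables for c2 carry another clone number than the titles, and the titles were followed.

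Of 167268 transcripts, 151039 (90.3%) matched GENCODE 29 by identifier, and the rest, 6.23% to 6.5% of the reads of a library, were dropped. GENCODE 29 lies on GRCh38, so its coordinates are given on that build and served for names and structures, not for the authors' alignment. The counts were added up over 33367 genes, then rounded, and the filter of edgeR (smallest group 2) left 14075 of 21165 genes with a count above 0. Tests used edgeR 4.0.16 (quasi-likelihood, two-sided, Benjamini-Hochberg over all genes tested, threshold 0.05) in R 4.3.3 with TMM scaling, and log2 CPM used a prior count of 2. DESeq2 1.42.0 and limma 3.58.1 (voom) were alternatives. The fitting steps were tested on simulated data.

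The induced and uninduced libraries of a clone come from the same cells, which pairs them. Deviations from the means of induced and of uninduced libraries correlated within each line across genes (in NT r = 0.608, in c1 0.679, in c2 0.741). Values from fits blocked on the clone (replicate block) stand beside results that they change.

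The members and lists were chosen with earlier results of these data known. All 9 members are named, with transcripts of at least 10% of a gene's reads in a library, called genes of a list of 36 pathway neighbours (at most 6 per comparison, by p), and the 3 genes with the closest pattern to ALAS2 and to ALAS1 among those with a mean of at least 10 CPM. Intervals of single libraries are 95% counting intervals (Wilson for shares). Intervals of log2 differences from edgeR are 95% intervals that take the SE as normally distributed, and are too narrow for so few libraries. Protein sequences were not used here.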

Additional observations from a re-analysis of the deposited data

Results flagged for a closer look

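TMEM14C stood at 184.2 CPM in uninduced c2, the lowest of the 4 controls, which otherwise held 209.8 to 212.7 CPM. The gap to the nearest control was 0.899 of the range of the 4, above Dixon's critical value for a sample far from the others in a group of this size. Such a gap arises by chance in about 1 group in 20, and 18 values were examined. Induced c2 was also low, at 176.4 CPM.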

How the results depend on the processing

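Member fold changes kept direction and side of the threshold in 672 cases, lost the threshold in 27, gained it in 8 and changed sign in 40. For calls in c1 against NT, c2 against NT and c2 against c1, a transcript length offset gave 2, 1 and 2 members and 2369, 1793 and 2312 genes, and keeping unmatched transcripts gave 2, 0 and 2 members and 2021, 1164 and 1825 genes. With the offset UROD in c1 against NT stood at 0.05 and PPOX in c2 against c1 at 0.04. DESeq2 without a block called 22, 2 and 5 genes for knockdown, induced against uninduced and response against NT. With the clone as a replicate block, edgeR called 6, 141 and 19 genes, DESeq2 113, 69 and 8, and voom 16, 104 and 9, and the block with doxycycline called 19 for knockdown. The members called with the block were 1 (ALAS2) for knockdown by DESeq2, and 1 (ALAS2) for induced against uninduced by edgeR and by DESeq2. These calls rest on the same difference between induced and uninduced c1 and c2. In the knockdown comparison the block turned PPOX to 0.24 (edgeR, DESeq2 and voom), and with doxycycline to 0.36, with ALAD at −0.18. The block changed no other member's call.

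Leaving out 1 library in turn gave 2 to 5 members and 2224 to 3675 genes in c1 against NT, 1 to 3 members and 1505 to 3515 genes in c2 against NT, and 1 to 3 members and 1973 to 3953 genes in c2 against c1. Members that changed sign spanned, for knockdown, −0.11 to 0.91 (ALAS2), −0.03 to 0.25 (FECH) and −0.08 to 0.09 (UROD). For induced against uninduced without the block they spanned −0.26 to 1.10 (ALAS2), −0.15 to 0.31 (FECH), −0.03 to 0.15 (UROD), 0.00 to 0.29 (ALAD), −0.04 to 0.21 (CPOX) and −0.17 to 0.03 (TMEM14C). For the response against NT they spanned −0.36 to 1.00 (ALAS2), −0.16 to 0.30 (FECH), −0.07 to 0.10 (UROD) and −0.16 to 0.04 (TMEM14C). In c1 against NT they spanned −0.41 to 0.21 (UROS) and −0.05 to 0.02 (UROD), in c2 against NT −0.48 to 0.12 (UROS), −0.18 to 0.04 (CPOX) and −0.12 to 0.05 (FECH), and in c2 against c1 −0.05 to 0.04 (ALAS1), −0.29 to 0.09 (PPOX) and −0.23 to 0.08 (UROS). The cause of these changes was not tested. A left-out library can leave a single library in a group, which is then assumed to vary like the others. Without an NT library the response against NT could not be fitted. Blocked fits of DESeq2 and voom were chosen after seeing the data. Depth limits ALAD most, at 426 to 747 reads.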
